A study of Homo sapiens with 4 samples.

Results

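Sphingosine 1-phosphate is a signaling lipid made inside cells, carried out of them and sensed at the surface of other cells or of the same cell. The 10 genes described here encode its exporter and a related transporter (SPNS2 and SPNS1), the kinases that make it (SPHK1 and SPHK2), the enzymes that remove it (SGPL1 and SGPP1) and its receptors (S1PR1, S1PR2, S1PR3 and S1PR5). They were matched by gene symbol to the 61541 genes of the count table. The group was chosen by a measured value of the same comparison, the rise of SPNS2 in cadmium-resistant cells, so that rise is given as a description and carries no test. The other 9 genes were chosen by their place in the pathway, with earlier results of these data known.

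RNA-seq was performed on MDA-MB-231, an established human breast cancer line. Cadmium-resistant cells were obtained by serial passage in medium with cadmium sulfate raised to 10 µM, and control cells were matching cells of the same line without cadmium. Each group had 2 libraries, named here control 2 and control 3, after the numbers in the count table, and cadmium 1 and cadmium 2. The labels call the controls biological replicates and say only replicate for the resistant cells, so p-values measure the spread between these libraries, which may in part be technical. The resistant cells were selected over many passages, and cadmium exposure and the selection cannot be told apart. In a bulk library, fewer cells that express a gene and less RNA per cell cannot be told apart either.

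The libraries held between 51934729 and 61916007 reads assigned to genes. VIM, CD44, KRT8 and KRT18 were high, and ESR1 and PGR, known to be absent from this line, had at most 30 reads. Of the other markers listed as low in the line, CDH1 had 113 to 578 reads and ERBB2 had 4606 to 7158 reads. Metallothioneins MT2A and MT1X, which sequester cadmium, rose in the resistant cells, with log2 fold changes of 2.06 and 2.87 and adjusted p of 9.41e-06 and 3.48e-13. MT2A missed the threshold without cadmium 1 or cadmium 2, with log2 fold changes of 2.16 and 1.94. The controls differed from each other more than the cadmium libraries did. For the 12924 genes that averaged 100 or more normalized counts, the log2 ratio within a pair had a robust SD of 0.56 for the controls and 0.16 for the cadmium libraries. Results below are therefore also given without control 2 or control 3 where that matters. Those fits take the spread from the cadmium libraries alone, so their adjusted p-values and calls leave out the difference between the controls. Fits without cadmium 1 or cadmium 2 take the spread from the controls alone, which differed more, so a call is more easily lost there.

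Cells make sphingosine 1-phosphate by phosphorylating sphingosine, which comes from the breakdown of ceramide and other membrane sphingolipids. The lipid cannot cross the membrane unaided and leaves the cell through transporters, of which SPNS2 is the best known in endothelial cells. Outside, it acts on a family of G protein-coupled receptors that steer cell migration, vessel integrity and lymphocyte traffic. It is withdrawn by dephosphorylation back to sphingosine or by irreversible cleavage by the lyase encoded by SGPL1.

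SPNS2 was higher in cadmium-resistant than in control cells, which is the rise that chose the group. No difference was detected for the kinases, the lyase or the phosphatase. SPNS2 (ENSG00000183018, chromosome 17, 4498881 to 4539035, hg38, plus strand) had normalized counts of 504.3 and 347 in control 2 and 3, against 3542 and 1988 in cadmium 1 and 2. Both cadmium libraries lay above both controls. The mean went from 425 ± 112 to 2765 ± 1099 (SD, n = 2 each), a 6.50-fold difference (log2 fold change 2.70, SE 0.39). The ratio of a cadmium to a control library ranged from 3.94 to 10.2 over the pairings of single libraries. The log2 fold change was 2.22 without cadmium 1, 3.05 without cadmium 2, 2.996 without control 2 and 2.44 without control 3. Of the 19816 tested genes 1.14% were called, with a DESeq2 adjusted p-value below 0.1 (0.601% as higher and 0.535% as lower). None of the 9 members other than SPNS2 was among them. With upper-quartile size factors the calls over all genes were 152 higher and 88 lower, against 119 and 106. Because its rise chose the group, no test of SPNS2 is given.

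The size of the rise was not the same in both cadmium libraries. SPNS2 was 1.78 times as high in cadmium 1 as in cadmium 2. A difference at least that large between the cadmium libraries was found for 0.604% of the 12924 genes. In the controls SPNS2 differed by 1.45 times, and 36.2% of the genes differed at least as much there. The cadmium libraries thus stood far apart for SPNS2 compared with most genes, and even the lower of them was 3.94 times the higher control.

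**Figure D1:**
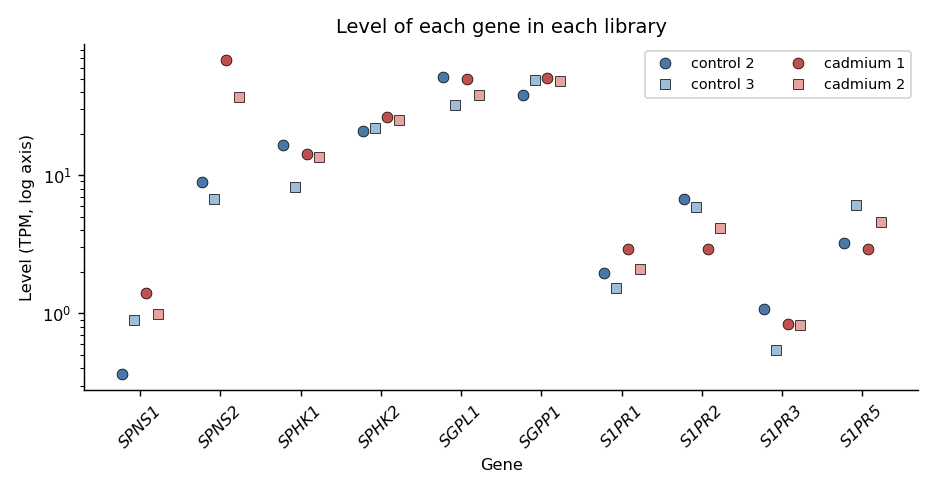
Level of each of the 10 genes in TPM (log axis) in the 2 control libraries (blue) and the 2 cadmium libraries (red), 1 point per library. SPNS2, whose rise chose the group, lay at 6.66 and 8.98 TPM in the controls and at 36.98 and 68.4 TPM in the cadmium libraries.

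Levels were compared between genes per length, as TPM (transcript abundance: reads per base of gene, scaled to the same sum in each library). In control cells SGPP1 and SGPL1 were the most abundant, at 43.3 ± 7.94 and 41.6 ± 13.1 TPM (SD, n = 2 each), and their libraries overlapped. SPHK2 followed at 21.3 ± 0.862 TPM and SPHK1 at 12.4 ± 5.93 TPM. SPNS2 was in place 5 with 7.82 ± 1.64 TPM, and its libraries overlapped those of SPHK1 above it and S1PR2 below it. In cadmium-resistant cells SPNS2 had the highest mean, 52.7 ± 22.2 TPM, but its libraries spanned those of SGPP1 at 49.5 ± 1.93 TPM, so the first place was not separated from the second. The receptor genes and SPNS1 were the lowest in both groups, each below 7 TPM in every library. The place of SPNS1 is not secure, since reads in the exon bases it shares with other genes were dropped. Scaled to library size alone, without length correction, SPNS2 took place 2 in the resistant cells, behind SGPL1.

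SPNS1 (ENSG00000169682, chromosome 16, 28974221 to 28984548) encodes a lysosomal transporter of lysophospholipids from the same family as SPNS2. It had 20 and 41 reads in the controls and 68 and 50 in the cadmium libraries, so both cadmium libraries lay above both controls. The log2 fold change was 0.91 (SE 0.71) with an adjusted p of 0.979, and no difference was detectable at this depth. It was 0.42 without control 2 and 1.62 without control 3, with an adjusted p of 0.859 and 0.152. These counts understate the gene. Of its exon bases 55.4% are shared with the lncRNA gene ENSG00000261067 and 14.8% with ENSG00000260367, and reads that fell in 2 genes were dropped.

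No difference was detected for the sphingosine kinases. SPHK1 (chromosome 17, 76376584 to 76387860), the mainly cytosolic kinase, had normalized counts of 1011 and 463 in control 2 and 3, against 794 and 784 in cadmium 1 and 2. The cadmium libraries lay between the controls. Its log2 fold change of 0.10 (standard error 0.42, adjusted p 1.00) had a 95% interval from 0.602-fold to 1.91-fold. The sign rested on the controls, since the log2 fold change was 0.77 without control 2, with an adjusted p of 0.0160, and -0.37 without control 3, with 0.210. SPHK2 (chromosome 19, 48619291 to 48630717), found in the nucleus and at internal membranes, was more even, with 1719 and 1686 normalized counts in the controls against 2001 and 1990 in the cadmium libraries. Both cadmium libraries were higher, but the log2 fold change of 0.23 (standard error 0.25) had an adjusted p of 1.00 and an interval from 0.834-fold to 1.65-fold. Per length SPHK2 was 1.85 and 1.87 times SPHK1 in the cadmium libraries, and 1.25 and 2.68 times in the controls.

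The genes for removal of the lipid also showed no detected difference. SGPL1 (chromosome 10, 70815948 to 70881184), whose lyase cleaves sphingosine 1-phosphate in the endoplasmic reticulum, had normalized counts of 5275 and 3106 in control 2 and 3, against 4719 and 3759 in cadmium 1 and 2. All cadmium values lay inside the control range. The log2 fold change was 0.02 (SE 0.35) with an adjusted p of 1.00 and an interval from 0.628-fold to 1.63-fold. It became 0.45 without control 2, where the adjusted p was 0.0584, and -0.33 without control 3. SGPP1 (chromosome 14, 63684216 to 63728065), a phosphatase of the same membrane, had 1736 and 2087 normalized counts in the controls and 2159 and 2123 in the cadmium libraries. Its cadmium libraries lay just above the higher control. The log2 fold change was 0.16 with an adjusted p of 1.00 and an interval from 0.780-fold to 1.61-fold. A change of SGPL1 or SGPP1 as large as that of SPNS2 lay outside these intervals.

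**Figure D2:**
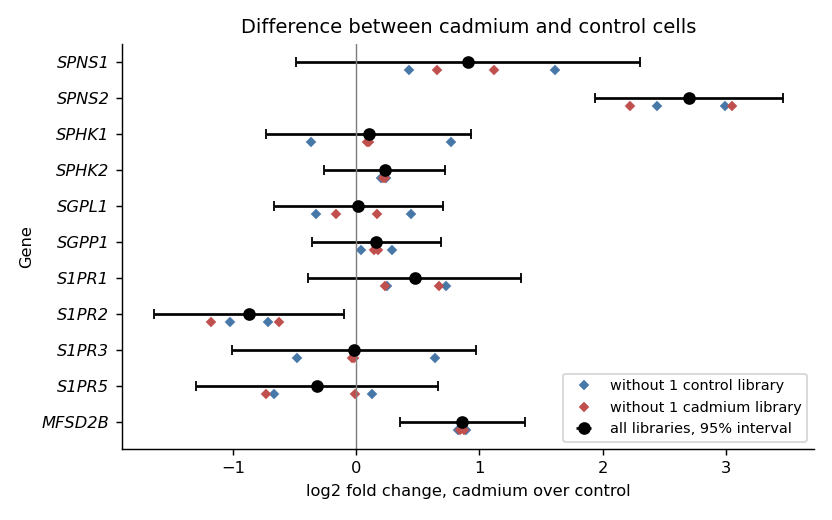
DESeq2 log2 fold change, cadmium over control, for the 10 genes and MFSD2B (black points, bars are 95% intervals from 2 libraries per group). Small diamonds are the values with 1 control (blue) or 1 cadmium (red) library left out, which stay above 2 for SPNS2 and cross 0 for SPHK1, SGPL1, S1PR3 and S1PR5.

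Among the 4 receptor genes S1PR2 lay below both controls in each cadmium library, S1PR1 lay above them, and the groups overlapped for S1PR3 and S1PR5. None passed the test with all libraries. S1PR2 (ENSG00000267534, chromosome 19, 10221433 to 10231331, minus strand), whose receptor restrains migration in many cells, had normalized counts of 339 and 274 in control 2 and 3, against 135 and 199 in cadmium 1 and 2. The log2 fold change was -0.87 (SE 0.39), or 0.546-fold with an interval from 0.319 to 0.933. This did not pass the test over all genes, with an adjusted p of 0.567 and an unadjusted p-value of 0.0269 in the same fit across all genes. Among the 12 alternatives run it passed only without control 3, with an adjusted p of 0.0381. The difference kept its sign without any 1 library, with log2 fold changes from -1.18 to -0.63.

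S1PR1 (chromosome 1, 101236865 to 101243713), a Gi-coupled receptor that drives lymphocyte egress and vessel maturation, had normalized counts of 142 and 102 in the controls and 195 and 144 in the cadmium libraries. The groups were apart, but cadmium 2 and control 2 were nearly equal. Its log2 fold change was 0.47 (SE 0.44) with an adjusted p of 1.00. S1PR3 (chromosome 9, 88990863 to 89005155), which couples to several G protein classes, had 203 and 94.6 normalized counts in the controls and 146 and 148 in the cadmium libraries. S1PR5 (chromosome 19, 10512742 to 10517931), best known in natural killer cells and oligodendrocytes, had 125 and 218 in the controls and 104 and 171 in the cadmium libraries. The groups overlapped for both, with log2 fold changes of -0.02 and -0.32. The intervals ran from 0.496-fold to 1.964-fold for S1PR3 and from 0.406-fold to 1.58-fold for S1PR5. The intervals of both genes thus include falls to less than 0.5 of the control level.

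The makeup of the receptor group was read within each library, where library scaling does not enter. S1PR2 held 51.8% and 41.9% of the TPM summed over the 4 receptor genes in the controls, and 30.4% and 35.5% in the cadmium libraries. S1PR1 held 15.1% and 10.9% in the controls and 30.6% and 17.9% in the cadmium libraries. The S1PR2 to S1PR1 ratio was 3.42 and 3.85 in the controls against 0.995 and 1.98 in the cadmium libraries, which did not overlap. That separation follows from S1PR2 being lower and S1PR1 higher in both cadmium libraries, as given above, and is not a further result. The groups were also apart for the S1PR2 to S1PR3 ratio, but they overlapped for the S1PR5 to S1PR3 ratio. How often such ratios separate for other gene pairs was not tested. With 2 libraries per group an exact two-sided permutation test cannot go below p = 0.333, so none is given. S1PR4, the receptor gene outside the group, had at most 6 reads in a library.

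Across the group, 6 of the 10 genes had non-overlapping normalized counts between control and cadmium libraries, 5 of them higher in cadmium. Such separation was found for 40.3% of all tested genes in either direction and for 20.3% as higher in cadmium. Of the 9 genes other than SPNS2, whose rise chose the group, 4 lay higher, 1 lay lower and 4 overlapped. The median log2 fold change was 0.13 over the 10 genes, SPNS2 included, and -0.02 over all genes tested. Of the 9 genes other than SPNS2 none was called by DESeq2 and 1, S1PR2, had an unadjusted p-value below 0.05. The quasi-likelihood test of edgeR and limma-voom called 0 genes in the whole table at the same threshold, with 1506 and 1423 genes at an unadjusted p-value below 0.05, and the edgeR adjusted p of the 9 genes lay between 0.631 and 0.995.

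The region around SPNS2 was examined to see whether its neighbors moved with it. The 40 expressed genes around it on chromosome 17 were taken in equal numbers from each side, with starts up to 2.18 Mb before and 0.862 Mb after that of SPNS2. They had log2 fold changes from -0.84 to 0.60 with a median of -0.07, and 0 of them were called. MYBBP1A, the next expressed gene downstream, had a log2 fold change of 0.00 (SE 0.30). It overlaps the end of SPNS2 on the other strand over 139 bases, 3.42% of the SPNS2 exon bases, and reads in that stretch were dropped. On the upstream side UBE2G1 had a log2 fold change of -0.07, ANKFY1 one of 0.07 and CYB5D2 one of -0.26. Farther downstream PELP1 and ARRB2 had log2 fold changes of -0.53 and -0.44 with adjusted p of 0.723 and 0.901.

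**Figure D3:**
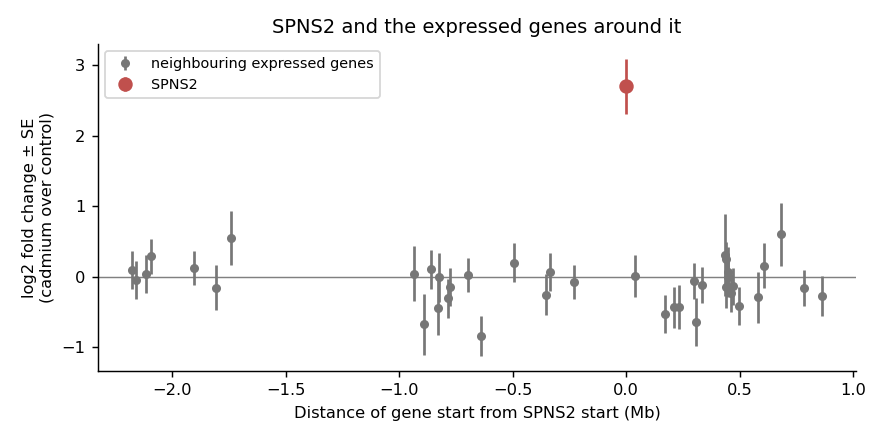
DESeq2 log2 fold change, cadmium over control, with its standard error (vertical axis) against the distance of each gene start from the SPNS2 start in Mb. SPNS2 (red) lies at 2.70 and the 40 expressed genes around it (grey), in equal numbers from each side, between -0.84 and 0.60.

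A pair of weakly expressed genes at the upstream end of SPNS2 are named after their values were seen. SPNS3, a further family member whose end lies 10.7 kb before the SPNS2 start, had 5 and 32 reads in the controls and 99 and 34 in the cadmium libraries. SPNS2-AS1, an antisense gene over the SPNS2 start, had 2 and 1 reads in the controls and 22 and 6 in the cadmium libraries. Like SPNS2, both were higher in cadmium 1 than in cadmium 2. Neither was called with all libraries, with adjusted p of 0.806 and 0.718, but SPNS3 was called without control 3, with an adjusted p of 0.00267. SPNS3 in cadmium 2 was at the level of control 3, and the SPNS2-AS1 control counts were no higher than 3, the floor that counting error sets, and no fold is given. SPNS2-AS1 shares no exon base with SPNS2, but reads were counted without strand, so unspliced SPNS2 transcripts and antisense reads cannot be told apart.

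The genes whose values over the 4 libraries were most like those of SPNS2 were ST6GALNAC5, HMOX1, RAB3B, MT1X and SP140, by the Euclidean distance of log2(normalized count + 1) after centring each gene. ST6GALNAC5, which encodes a sialyltransferase that acts on gangliosides, was closest at a distance of 0.18. It had normalized counts of 35.01 and 27.6 in the controls and 252 and 141 in the cadmium libraries. The cadmium libraries differed by 1.78 times for ST6GALNAC5 and for SPNS2. HMOX1, the heme oxygenase gene, followed at a distance of 0.61 and had 6436 and 6141 normalized counts in the cadmium libraries. RAB3B, with a distance of 0.71, was higher in cadmium 1 again, at 305 against 177 normalized counts. MT1X and SP140 had distances of 0.77 and 0.81. Of the other members with at least 100 mean normalized counts, S1PR1 was nearest, at 2.21 in place 478. With 4 libraries such likeness is a description only.

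The other genes of the pathway were taken from 6 lists, chosen by role, with earlier results of these data known. Of 61 genes, 55 could be tested, and 1 was called higher and 0 lower. Over all tested genes 1.14% were called, 0.601% as higher. The median log2 fold change over the 55 was -0.08, with 23 higher and 32 lower, beside -0.02 over all genes tested. Groups did not overlap for 22 of the 55, beside 40.3% of all tested genes.

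The called gene was MFSD2B (ENSG00000205639, chromosome 2, 24010081 to 24063321), the sphingosine 1-phosphate transporter known from red blood cells and platelets. Its normalized counts were 853 and 897 in control 2 and 3, against 1604 and 1576 in cadmium 1 and 2. The groups were apart, and the libraries of each lay close together. MFSD2B rose by a log2 fold change of 0.86 (SE 0.26), or 1.82-fold, with an adjusted p of 0.0881. The call lay close to the threshold and was lost under edgeR, with an adjusted p-value of 0.620, under limma, with 0.669, and with no independent filtering, with 0.149. It was also lost without cadmium 1 or without cadmium 2, where the spread came from the controls alone and calls fell over the whole table. The log2 fold change stayed between 0.82 and 0.89 whichever library was left out. The 40 expressed genes around it had a median log2 fold change of -0.32. MFSD2B shares 10.3% of its exon bases with FKBP1B, which had at most 17 reads in a library.

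Per length the ratio of SPNS2 to MFSD2B was 0.658 and 0.429 in the controls and 2.45 and 1.40 in the cadmium libraries. Of this pair MFSD2B was the more abundant in both control libraries, with a mean of 14.6 TPM, and SPNS2 in both cadmium libraries. In the same list ABCC1, an ABC transporter also reported to carry the lipid, was the most abundant and had a log2 fold change of 0.01 with an adjusted p of 1.00. ABCA1, the cholesterol exporter, had normalized counts of 1087 and 3585 in the controls and 1182 and 681 in the cadmium libraries, giving a log2 fold change of -1.33 and an adjusted p of 0.432. Its groups overlapped, since control 2 lay within the cadmium range. For ABCA1 the log2 fold change was -1.94 without control 2, with an adjusted p of 0.0383, and -0.23 without control 3, with 0.871.

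Promoters are shown for MFSD2B, as the called exporter, for S1PR2, as the receptor gene with the lowest fold change, and for SGPL1, as the member with the most metal response element matches. Metal response elements are the sites of the metal-responsive factor MTF-1, and their core was searched as TGCACNC and TGCGCNC, beside the AP-1 motif TGANTCA, on both strands of RefSeq promoters (GRCh38.p14, 250 bases before to 50 after each start). These 3 motifs were found in 12.1%, 19.97% and 7.71% of 35116 promoters, and 1 site can hold overlapping matches. Of the 10 genes 8 had an entry, and SPNS2 and SGPP1 had none. Only the 250 bases before the start are printed, 5′ to 3′ on the strand of the gene, with motif matches in capitals.
MFSD2B (chr2:24009835-24010084, plus strand): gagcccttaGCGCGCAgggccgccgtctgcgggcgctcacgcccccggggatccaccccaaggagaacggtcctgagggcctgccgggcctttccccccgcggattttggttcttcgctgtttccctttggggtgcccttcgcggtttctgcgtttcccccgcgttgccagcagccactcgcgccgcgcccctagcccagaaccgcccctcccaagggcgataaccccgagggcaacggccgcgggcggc
S1PR2 (chr19:10231332-10231581, minus strand): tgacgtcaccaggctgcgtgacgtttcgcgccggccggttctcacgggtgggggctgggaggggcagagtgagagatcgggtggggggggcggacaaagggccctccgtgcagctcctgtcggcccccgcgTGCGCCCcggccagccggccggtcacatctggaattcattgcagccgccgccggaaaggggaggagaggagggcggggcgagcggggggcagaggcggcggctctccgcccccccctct
SGPL1 (chr10:70815698-70815947, plus strand): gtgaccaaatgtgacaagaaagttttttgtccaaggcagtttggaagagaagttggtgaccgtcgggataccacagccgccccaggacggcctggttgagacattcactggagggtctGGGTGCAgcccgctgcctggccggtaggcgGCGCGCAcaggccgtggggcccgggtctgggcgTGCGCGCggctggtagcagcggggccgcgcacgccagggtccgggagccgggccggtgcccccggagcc
MFSD2B held 1 match to TGCGCNC at position -241 from the start, S1PR2 1 at -119, and SGPL1 2 at -102 and -69 together with 1 match to TGCACNC at -132. An AP-1 match was found in promoters of SPHK1, at -6 in the first of its 3 listed promoters and at -71 in the third. In the other promoters of the group a TGCGCNC match was found for SPHK2, S1PR3 and S1PR5, and no match to any of the 3 motifs for SPNS1 or S1PR1. A match of this kind is a string of letters and not a measured binding site. The paper cites reports that MTF-1 was not found at consensus elements under cadmium. It describes the MTF-1 sites gained in the resistant cells as enriched for FOS/JUN motifs and mostly distal to gene starts.

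The lists for turnover and ceramide metabolism held no called gene. Among genes for turnover PLPP2 and PLPP3, which dephosphorylate lipid phosphates at the cell surface, had log2 fold changes of -0.07 and 0.15, and ALDH3A2, which oxidizes the aldehyde left by the lyase, had 0.10. All had an adjusted p of 1.00, but for ALDH3A2 and PLPP2 the direction rested on the controls. The log2 fold change of ALDH3A2 was -0.59 without control 2 and 1.46 without control 3. That of PLPP2 was 0.36 without control 2 and -0.42 without control 3. In ceramide synthesis the abundant genes DEGS1 and CERS2 had log2 fold changes of -0.12 and -0.15. SPTLC3, a subunit of serine palmitoyltransferase that starts the pathway, had normalized counts of 944 and 1296 in the controls and 1944 and 1946 in the cadmium libraries. Its groups were apart, with a log2 fold change of 0.80 that missed the threshold at an adjusted p of 0.300 and passed it without control 2 (0.58, adjusted p 0.00868) or without control 3 (1.03, adjusted p 6.22e-08). CERS4, a ceramide synthase gene, had a log2 fold change of -1.12 with an adjusted p of 0.718. Control 2 stood alone at 985 normalized counts, against 271 in control 3 and 323 and 257 in the cadmium libraries. Without control 2 the CERS4 log2 fold change was 0.10, and without control 3 it was -1.78.

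No ceramidase, sphingomyelin or glycosphingolipid gene was called with all libraries. ACER3, an alkaline ceramidase gene that yields sphingosine, had 2211 and 2555 normalized counts in the controls and 3378 and 3368 in the cadmium libraries, giving a log2 fold change of 0.50 and an adjusted p of 0.718. SMPD1, the acid sphingomyelinase gene, and CPTP, which transfers ceramide 1-phosphate, had log2 fold changes of 0.20 and -0.19, and SMPD4, a neutral sphingomyelinase gene, had -0.47. UGCG, which makes glucosylceramide, had 0.01, B4GALT5, which makes lactosylceramide, -0.46, and GLA, the lysosomal alpha-galactosidase gene, 0.50. The lowest adjusted p of these 6 genes was 0.727. Among G protein genes GNAI2, GNA12 and GNAI1, whose products relay receptor signals, had log2 fold changes of -0.22, -0.30 and -0.53 with adjusted p of 1.00, 0.977 and 0.894. List medians ranged from -0.23 to 0.04. Leaving out a control changed many of these results. ACER3 and B4GALT5 were called in the same direction without either control, and GLA, GNA12 and SMPD4 without control 3, where SMPD4 was at -0.82 against -0.04 without control 2. GNAI1 was called without control 2 (-0.84) and was at -0.17 without control 3. SMPD1 was at -0.22 without control 2 and was called at 0.78 without control 3, and UGCG was called at 0.37 without control 2 and at -0.29 without control 3. Without control 2 or control 3 calls rose over the whole table as well, and the spread came from the cadmium libraries alone. These calls are therefore not read as results about the lists.

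**Figure D4:**
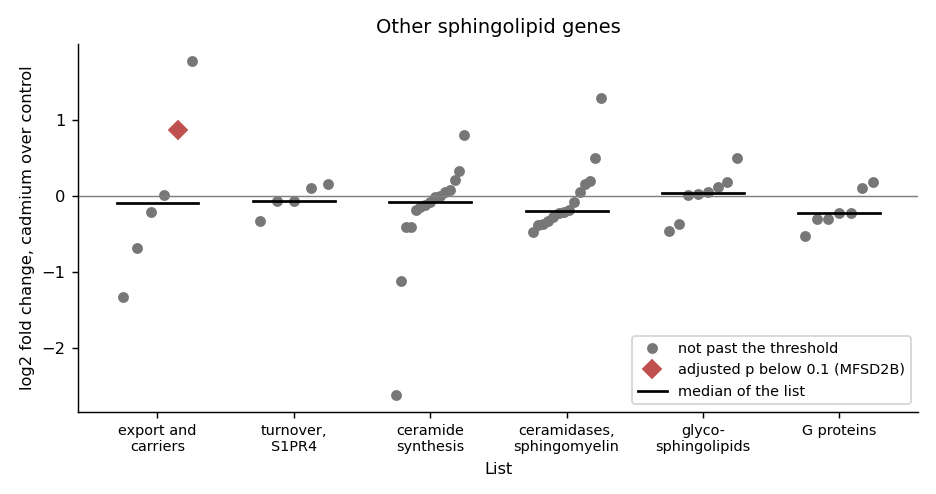
DESeq2 log2 fold change, cadmium over control, for the tested genes of the 6 lists, 1 point per gene, with the median of each list as a black bar. MFSD2B (red diamond, 0.86) is the called gene, and the list medians lie between -0.23 and 0.04.

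Because SPNS2 is best known in endothelium, endothelial markers were read beside it. Of 11 such genes 8 could be tested and 1, TIE1, was called, beside 1.14% of all tested genes. TIE1, an endothelial receptor tyrosine kinase gene, had a log2 fold change of 4.88, with 5.68 and 18.1 normalized counts in the controls and 347 and 343 in the cadmium libraries. Of the 11 genes, CDH5, VWF, TEK, ERG and CLDN5 stayed below 0.5 TPM in every library, with ERG at 0 throughout. Of the 8 tested genes 6 had a positive and 2 a negative log2 fold change, with a median of 0.65. TIE1, ROBO4, VWF and CLDN5, 4 of the 8 tested genes, had both cadmium libraries above both controls, beside 20.3% of all tested genes. So did CDH5, which was not tested. CLDN5 had 4 and 4 reads in the controls and 18 and 6 in the cadmium libraries, and CDH5 had 4 and 2 against 8 and 16. These counts lie near the floor of 3 counts (6 if both mates are counted). ROBO4 had normalized counts of 3769 and 2232 in the controls against 5834 and 5367 in the cadmium libraries (log2 fold change 0.90, adjusted p 0.315), and was called without control 2 (1.33) or without control 3 (0.56). ESAM, EGFL7, PECAM1 and KDR were present in both groups, and their groups overlapped. The summed level of the list was 329 and 393 TPM in the controls and 421 and 441 TPM in the cadmium libraries, and its part in the SPNS2 result was not tested.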

How the data were processed

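RNA was sequenced as read pairs from 2 control and 2 cadmium-resistant MDA-MB-231 libraries. The authors trimmed adaptors with bbduk, aligned to hg38 with hisat2 and deposited raw read counts per gene, without normalization, made with featureCounts 2.0.1 and an Ensembl annotation. Default options applied, so strand was ignored, reads in several genes or places were discarded, and both mates of a pair could count. Of the counts from 1 to 20, 70.6% to 71.5% were even, so counting error is larger than the counts give. The file command names the control alignments by letters and the columns by 2 and 3. The labels use 1 and 2, so a control column was given a group but no sample. The deposited gene length column (other unit, summed exon bases) gave TPM.

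Symbols were looked up by Ensembl identifier for 61369 of 61541 genes. DESeq2 1.42.0 in R 4.3.3, the tool of the study, was fitted to all genes (design: group, size factors by median of ratios, two-sided Wald test), with Benjamini-Hochberg adjustment after independent filtering at a mean normalized count of 7.69 and a threshold of 0.1. Intervals are 95% Wald intervals and cover the fitted spread, and the floor of 3 counts per library (6 if both mates are counted) covers counting error only. Alternatives were edgeR 4.0.16 (quasi-likelihood), limma 3.58.1 (voom), TMM or upper-quartile factors, no independent filtering, at least 10 counts in 2 libraries, a threshold of 0.05, halved counts and leaving out each library. The fits were also run on simulated counts in which both groups had the same spread, unlike these libraries. That run therefore cannot show how the fits handle the larger difference between the controls. The members and lists were chosen with earlier results of these data known. Named in each list were called genes, the 2 with the highest mean TPM and the 2 with the largest absolute log2 fold change at a mean normalized count of at least 100. For SPNS2, the 3 nearest expressed genes on each side and the 5 most similar in pattern were named. Other genes are named with a statement that this was done after their values were seen, or as fixed markers. Plots used Python 3.11.15.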

Additional observations from a re-analysis of the deposited data

How the results depend on the processing

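None of the 9 members other than SPNS2 was called with DESeq2. With edgeR and limma-voom 0 genes were called in the whole table, SPNS2 included, and its log2 fold change was 2.70 and 2.66. When a library was left out, some members moved further from 0. Without control 2 the log2 fold change was 0.77 for SPHK1 and 0.45 for SGPL1, and without control 3 it was -1.03 for S1PR2. The lone library of a group is assumed there to vary like the other group, and the whole table then gave 2311 calls without control 2, 6189 without control 3, 17 without cadmium 1 and 14 without cadmium 2, against 225 with all libraries. The count of called genes in the sphingolipid lists, 1, was 0 with edgeR, with limma-voom, with no independent filtering and at an adjusted p-value below 0.05, and between 0 and 26 when a library was left out, with 12 without control 2 and 26 without control 3. Signs turned for 4 members, and the cause was not tested. The log2 fold change of S1PR3 was 0.0716 with limma-voom and 0.0436 with upper-quartile factors, and without 1 library it ranged from -0.48 to 0.64. The ranges without 1 library were -0.37 to 0.77 for SPHK1, -0.33 to 0.45 for SGPL1 and -0.73 to 0.12 for S1PR5. Upper-quartile factors also changed the calls over all genes from 119 higher and 106 lower to 152 and 88. Without length correction SPNS2 moved to place 2 in the order of levels in resistant cells. No paired analysis was possible because no control column could be tied to a numbered control sample. Depth limits SPNS1, SPNS3, S1PR4 and SPNS2-AS1, which had under 100 reads in every library.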

Other observations

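Some sphingolipid genes differed more between the controls than between the groups, and they are named here after their values were seen. ALDH3A2 stood at 2930 normalized counts in control 2 but 12200 in control 3, with both cadmium libraries in between at 7654 and 8586. SPTSSB, which encodes a small subunit of serine palmitoyltransferase, had 17.03 in control 2 and 306 in control 3, against 31.8 and 20.7 in the cadmium libraries, and its log2 fold change of -2.62 had an adjusted p of 0.363, with control 3 standing alone. Without control 2 the SPTSSB log2 fold change was -3.54, and without control 3 it was 0.61. KDSR, which encodes the reductase that follows that enzyme, went the other way, with 5046 and 1793 in control 2 and 3, against 2694 and 2428 in cadmium 1 and 2. Of the 12924 expressed genes 3.60% differed between the controls at least as much as ALDH3A2 and 6.70% at least as much as KDSR.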
